A study of Homo sapiens with 2 samples.

Results

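Complement receptors and regulators are surface proteins that bind fragments of the complement proteins C3 and C4 or stop the cascade on the cell that carries them. The 6 genes described here are CR1, CR1L, CR2, CD46, CD55 and CD59. They were represented by 20 of the 54613 probe sets other than controls on an Affymetrix expression array, namely every probe set whose symbol field in the platform annotation held one of these names. The probe sets were taken by symbol, but the genes were chosen by their log2 ratios between the 2 arrays, which were known when the group was put together, so all values below are descriptions. The study used K562, an established human erythroleukemia line from ATCC grown in suspension. One culture received a miR-34a mimic, a synthetic RNA that acts as the mature microRNA, and the other a control mimic made to match no human gene. Both received 3 µg of mimic by nucleofection, an electrical transfer method, and total RNA was taken 24 hours later. Each group was 1 culture and 1 array, so the mimics could not be tested against each other, no value carries an error between cultures, and precision is limited by the number of arrays. An untransfected culture was not analysed here, so responses shared by both transfected cultures are not measured.

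Complement tags a cell with C3b and C4b, which build the convertase enzymes that amplify the cascade and lead to the membrane attack pore. CR1 and CD46 are cofactors for the protease that cuts C3b and C4b, CD55 breaks up the convertases, and CD59 stops the pore from forming. Human red cells carry CR1, which ferries immune complexes, as well as CD55 and CD59, while CD46 is found on nucleated cells and CR2, the receptor for the C3d fragment, mainly on B cells and follicular dendritic cells. CR1L is a gene beside CR1 whose human product is little characterised. The mouse gene of that name encodes Crry, a regulator on most mouse cells.

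Of the miR-34a precursor's mature products, the 5p strand is shown because it is the one generally meant by the name miR-34a. The labels do not say which strand the mimic held. The promoter windows of CR1L and CD46 are shown because these neighbouring genes had the largest and one of the smallest differences among the members above background while sharing promoter sequence. The sequences are RefSeq's, build GRCh38.p14, and each promoter window runs from 250 bases before to 50 bases after the gene's outermost start. Capitals mark the seed (bases 2 to 8) in the microRNA, and in the promoters the block that aligned between the pair. The microRNA lies on the minus strand at chr1:9151735-9151756, the CR1L window on the plus strand at chr1:207644883-207645182, and the CD46 window on the plus strand at chr1:207751788-207752087.
hsa-miR-34a-5p: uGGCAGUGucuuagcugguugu
CR1L promoter: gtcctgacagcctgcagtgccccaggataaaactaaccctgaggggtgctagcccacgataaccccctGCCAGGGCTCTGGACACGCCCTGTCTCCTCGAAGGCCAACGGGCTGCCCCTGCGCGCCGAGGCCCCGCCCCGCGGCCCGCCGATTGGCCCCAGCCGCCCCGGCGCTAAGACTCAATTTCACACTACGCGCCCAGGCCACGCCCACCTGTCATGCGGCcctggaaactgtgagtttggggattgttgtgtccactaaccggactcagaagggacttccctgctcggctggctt
CD46 promoter: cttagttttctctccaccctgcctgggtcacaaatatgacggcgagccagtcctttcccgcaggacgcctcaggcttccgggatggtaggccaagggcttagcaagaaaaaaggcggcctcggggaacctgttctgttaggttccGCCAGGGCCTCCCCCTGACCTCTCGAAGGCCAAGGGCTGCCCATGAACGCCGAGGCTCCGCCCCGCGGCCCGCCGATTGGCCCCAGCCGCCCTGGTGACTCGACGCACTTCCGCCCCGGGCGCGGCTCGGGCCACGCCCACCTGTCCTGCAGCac

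The block that CR1L and CD46 shared spanned 161 aligned columns, of which 127, or 78.9%, were identical and 12 were gaps. It held an identical run of 35 bases, against a longest run of 12 bases in the other 14 pairs of members' windows, whose best local alignments spanned 9 to 38 columns. In the RefSeq gene order a pseudogene of CD46, CD46P1, comes directly before CR1L. The identical run held the letters CCAAT on the minus strand and began and ended with CCGCCC on the plus strand. Counted on both strands over 35116 promoter windows of the same length, CCAAT stood in 34.6% and CCGCCC in 45.0%. The letters GATAA, the core recognised by GATA factors of red cell precursors, stood in 22.7% of the windows. The CR1L window held GATAA at positions -225 and -193, with the start site counted as 0, both upstream of the block. Of all windows, 4.80% held 2 or more. GATAA was not found in the windows of CR1, CR2, CD46, CD55 or CD59. No match of one of these 3 motifs overlapped a match of another in these windows. A match is a description of the letters only.

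Signals are the deposited probe set intensities, on a linear scale in arbitrary units. Background was set at 75.39, the highest value among 27 low-signal control probe sets for the bacterial transcripts dap, lys, phe, thr and trpn. Calls of above or within background rest on that choice of controls. Above it lay 35.5% of probe sets on the miR-34a array and 35.1% on the control array, and the median signals of the arrays were 40.1 and 39.5. A log2 ratio is the difference of log2(signal + 14.92), miR-34a minus control mimic, centred on the probe sets that passed a filter on mean level, which kept probe sets at or above the median (a signal of about 39.0). Of the 20 member probe sets, 14 passed the filter, 11 were above background on both arrays, and 9 were within background on both. Of the 14, 2 were higher with miR-34a by 2-fold or more and 0 were lower by as much. Among all 27307 probe sets that passed the filter, 0.538% were higher by 2-fold or more and 0.498% lower by as much. The same 2 member probe sets were the ones at least 1.5-fold higher, and 0 were 1.5-fold lower, beside 3.23% and 2.93% of all. The annotation does not place the probe sets in exons or untranslated regions, and positions of the probe sets were not used.

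**Figure D1:**
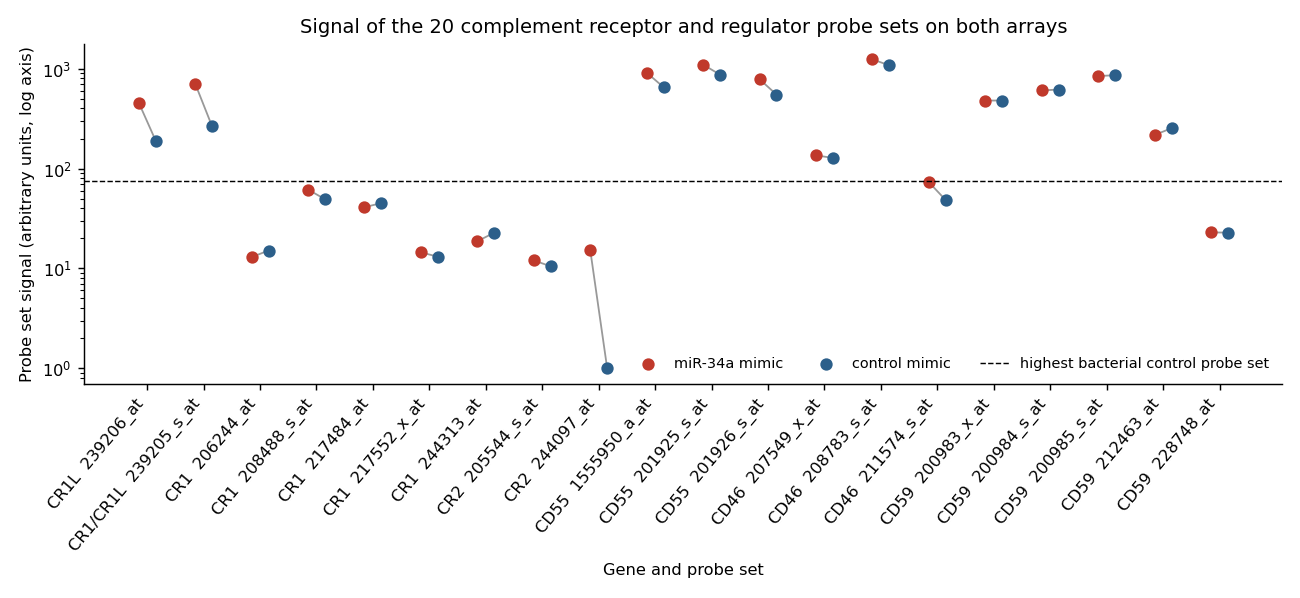
Signal of each of the 20 member probe sets (y axis, arbitrary units, log scale) on the miR-34a array (red, left) and the control array (blue, right), with the background signal of 75.39 as a dashed line. The CR1L probe set and the one shared with CR1 are the widest pairs above the line, while the CR1 probe sets of its own and both CR2 probe sets lie under it.

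The cells carried the markers of their line. Of 9 measured erythroid markers 8 were above background on both arrays, 7 of them higher with miR-34a, and the summed signal of the 9 was 31319 with miR-34a and 26317 with the control mimic. The embryonic globin gene HBZ had a log2 ratio of 0.84 and the transcription factor gene GATA1 0.23, and TFRC, the transferrin receptor gene, had -0.11. ALAS2, which starts heme synthesis in red cell precursors, read 131 with miR-34a and 24.56 with the control mimic, the control value being within background. Much of the difference in the summed signal lay in HBZ, which read 7672 with miR-34a and 4258 with the control mimic. KLF1, ANK1 and TAL1 had log2 ratios of 0.10, 0.17 and 0.19. The erythroid markers other than TFRC were higher on the same array as CR1L and CD55, described next, and their part in those differences was not tested. Fewer cells of a type and less RNA per cell cannot be told apart in such bulk samples. Of the 7 measured myeloid markers LYZ and CSF3R were above background on both arrays, at 0.11 and -0.22, and SPI1 read 158 with miR-34a and 67.05 with the control mimic. The summed signal of the 7 was 1008 with miR-34a and 902 with the control mimic. The B cell markers summed to 986 and 963 in that order. Of the 6 T cell markers only CD3D was above background on both arrays, reading 352 with miR-34a and 954 with the control mimic, and the sums over the 6 were 444 and 1054.

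CR1L had the largest difference of the 6 genes. Its own probe set, 239206_at, read 459 with miR-34a and 191 with the control mimic, a signal ratio of 2.40 and a log2 ratio of 1.20. The probe set shared by CR1L and CR1, 239205_s_at, read 711 with miR-34a and 265 with the control mimic, a signal ratio of 2.68 and a log2 ratio of 1.37. Both were above background on both arrays, and together they gave 1.28 ± 0.12 on the log2 scale (SD over 2 probe sets, which is technical and does not cover cultures). For scale, the pooled SD between probe sets of one gene was 0.19 over 3648 genes measured above background. CR1L was 1 of 12 gene symbols for which all of 2 or more probe sets above background were at least 2-fold higher, which is 0.28% of the 4292 symbols with that many. That count takes a shared probe set under each of its symbols, so CR1L entered it only with the probe set shared with CR1 beside 1 of its own. The genes were chosen by these same ratios, so the share is a description and lends CR1L no support. The pooled SD used only probe sets with 1 symbol.

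CR1, the C3b and C4b receptor of red cells, was within background on every probe set of its own. The brightest, 208488_s_at, read 61.6 with miR-34a and 49.3 with the control mimic, and 217484_at read 41.0 and 45.1 in the same order. The other 3 read 12.95 to 22.78 on either array. All 5 were within background on both arrays, and their log2 ratios, from -0.17 to 0.25, are not read as changes. The shared probe set cannot tell CR1 from CR1L by itself. The probe set for CR1L alone was higher as the shared one was, and the 5 for CR1 alone were within background. How well each probe set separates these similar genes was not tested.

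CR2 was likewise within background. The probe set 205544_s_at read 12.0 with miR-34a and 10.49 with the control mimic. The other, 244097_at, read 15.31 with miR-34a and 1 with the control mimic, where 1 is the lowest value in the file and is held by 3.54% and 3.58% of all probe sets on the 2 arrays. Its log2 ratio of 0.92 was set by the pseudocount, moving between 0.30 with 4 times the pseudocount and 3.93 with none, so no change is read from it. CR2 is a gene of B cells, and of the 7 measured B cell markers 3 (CD22, CD79A and CD79B) were above background on both arrays, with log2 ratios of 0.011, 0.044 and 0.18. MS4A1 and PAX5 read 64.8 and 2.4 with miR-34a, against 41.7 and 32.5 with the control mimic. FCER2 and BLNK read 12.2 and 1.52 with miR-34a, against 12.7 and 3.85 with the control mimic. All of these were within background.

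CD55, the decay-accelerating factor that also carries the Cromer blood group, was higher with miR-34a on each of its 3 probe sets. The probe set 201926_s_at read 786 with miR-34a and 551 with the control mimic. The probe set 1555950_a_at read 915 with miR-34a and 653 with the control mimic, and 201925_s_at read 1102 with miR-34a and 873 with the control mimic. Their log2 ratios were 0.50, 0.47 and 0.33, with a mean of 0.43 ± 0.091 (SD, 3 probe sets), and none reached 1.5-fold. All 3 probe sets were at least 1.2-fold higher, as were all of 3 or more probe sets for 44 of 1611 gene symbols, or 2.73%. The 1.2-fold limit was not among the planned limits of 2-fold and 1.5-fold, and it lies below the lowest CD55 value. The share is therefore a description and lends CD55 no support.

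CD46, the membrane cofactor protein, differed little. Its brightest probe set, 208783_s_at, read 1241 with miR-34a and 1083 with the control mimic, a log2 ratio of 0.19. The probe set 207549_x_at read 136 with miR-34a and 128 with the control mimic, at 0.073. The third, 211574_s_at, read 73.05 with miR-34a and 48.2 with the control mimic, both within background, so its log2 ratio of 0.47 is not read as a change. Over the pair above background the mean was 0.13 ± 0.082 (SD, 2 probe sets), and with the third included it was 0.24. The pooled SD of 0.19 between probe sets of one gene is technical, so it cannot show whether such a difference exceeds that between cultures. CD46 stood close to 0. CR1L, the next protein-coding gene upstream with the similar promoter block, was more than 2-fold higher on its own probe set. The probe set that cannot tell CR1L from CR1 was more than 2-fold higher as well.

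CD59, the inhibitor of the membrane attack pore, was at nearly the same signal on both arrays. The probe set 200985_s_at read 845 with miR-34a and 862 with the control mimic, 200984_s_at read 607 with miR-34a and 619 with the control mimic, and 200983_x_at read 480.1 with miR-34a and 481 with the control mimic. Their log2 ratios lay between -0.035 and -0.0078. The probe set 212463_at read 217 with miR-34a and 254 with the control mimic, at -0.22, and 228748_at read 22.9 and 22.8, both within background. Over the 4 probe sets above background the mean was -0.073 ± 0.096 (SD). The sign of 200983_x_at turned to positive under quantile and loess normalization and that of 200985_s_at under quantile normalization, so no direction is read for CD59. CD55 and CD59 are both held in the membrane by a glycosylphosphatidylinositol (GPI) anchor, and their mean log2 ratios over probe sets above background were 0.43 and -0.073.

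**Figure D2:**
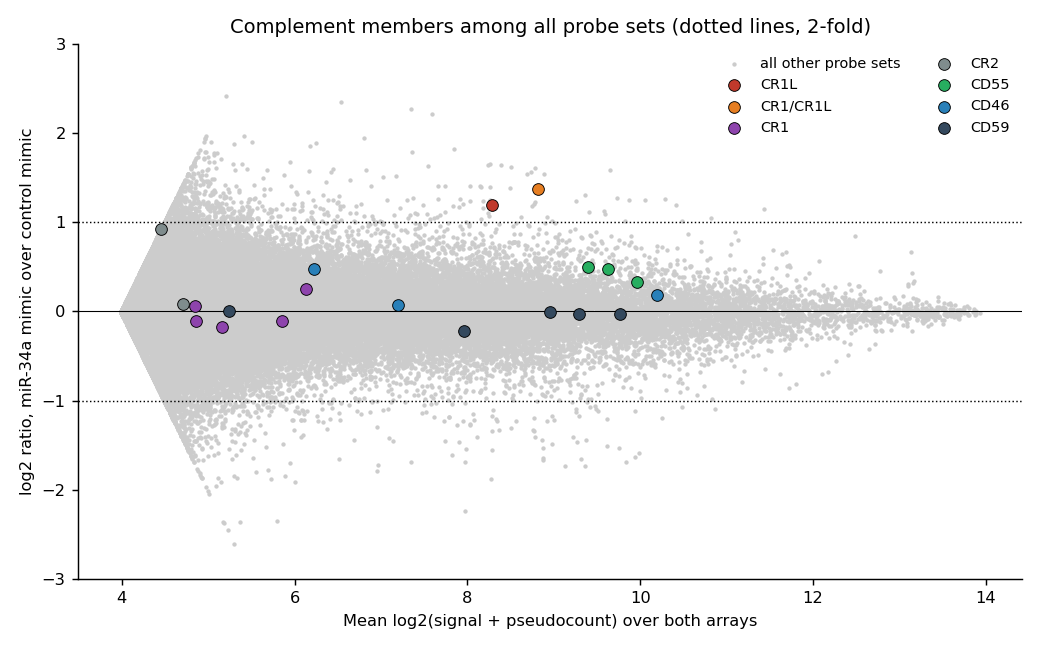
Log2 ratio of miR-34a over control mimic (y axis) against mean log2(signal + pseudocount) (x axis) for all 54613 probe sets other than controls (grey) and the 20 members (coloured by gene), with dotted lines at 2-fold. The points for CR1L and for CR1/CR1L lie above the upper line, and 1 grey point beyond the axis limit of 3 is not drawn.

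With the shared probe set counted under CR1L, the mean log2 ratios of the genes with probe sets above background ran in the order CR1L, CD55, CD46 and CD59, at 1.28, 0.43, 0.13 and -0.073. The shared probe set is also the only CR1 probe set above background, and under CR1 it would place that gene first, at 1.37. The lowest CR1L value, 1.20, lay above the highest CD55 value, 0.50, and the lowest CD55 value, 0.33, lay above the highest CD46 value above background, 0.19. CD46 and CD59 were neighbours in this order whose means differed by about the pooled SD between probe sets, which is technical and does not cover cultures. The median over the 11 probe sets above background was 0.19, and 7 of them were higher and 4 lower. Over all 18242 probe sets above background on both arrays the median was -0.0092, and 48.2% were higher. The 4 lower ones were all probe sets of CD59, for which no direction is read, and 3 of the 7 higher ones were of CD55. Probe sets of one gene are not independent and the genes were chosen by these ratios, so nothing is read from the counts or the median.

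All members but CD59 lie side by side on chromosome 1, in the RefSeq order CD55, CR2, CR1, CR1L and CD46, while CD59 lies on chromosome 11. The values did not move as one block along the row. CD55 was higher at one end, CR1L was higher near the other, and CD46 beside it had log2 ratios of 0.19 and 0.073 above background. Before CD55 come C4BPB and C4BPA, the chains of a C4b-binding protein of plasma, which read at most 17.66 on either array. Further out, YOD1, a deubiquitinase gene, read 2972 with miR-34a and 1585 with the control mimic on 227309_at, a log2 ratio of 0.90. Its second probe set gave 0.45, with a control signal within background. Beyond CD46, the progenitor surface gene CD34 read 240.0 with miR-34a and 233 with the control mimic, at 0.034.

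**Figure D3:**
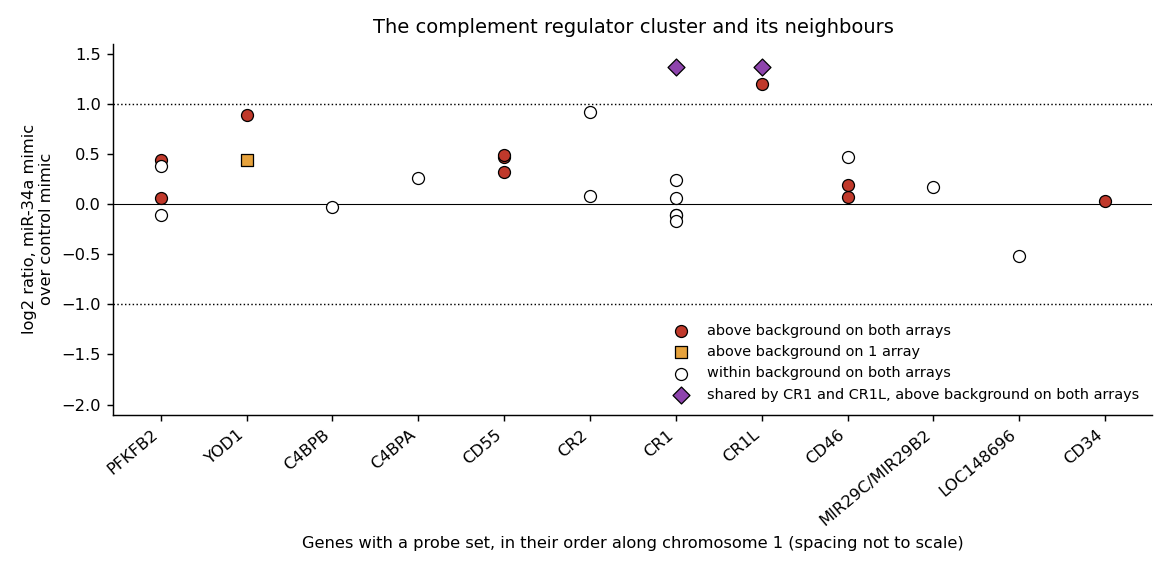
Log2 ratio of miR-34a over control mimic (y axis) for each probe set of the genes of the chromosome 1 cluster and its neighbours, in gene order with equal spacing (x axis). Filled circles were above background on both arrays, the square on 1 array, open circles on neither, and the diamond is the probe set that CR1 and CR1L share, drawn under both names. CR1L and YOD1 stand highest among the filled points, and CD46 and CD34 lie near 0.

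The rest of the complement system read mostly within background in these cells. Of 44 listed complement components, fluid-phase regulators and receptors, 40 had a probe set of their own and 8 passed the filter. Of the 8, 5 were higher and 3 lower with miR-34a, the median log2 ratio was 0.057, 1 was at least 1.5-fold higher and 0 were 1.5-fold lower or past 2-fold. Over all 12774 genes that passed, the median was 0.0039, 50.7% were higher, 3.32% were at least 1.5-fold higher and 2.94% lower, and 0.603% and 0.540% were at least 2-fold higher and lower. C3AR1, the receptor for the C3a fragment, was the highest, reading 228 with miR-34a and 132 with the control mimic, a log2 ratio of 0.71 on its single probe set. ITGB2, the beta subunit of complement receptors CR3 and CR4, read 89.3 with miR-34a and 68.45 with the control mimic, at 0.32, the control value being within background. The alpha subunits of those receptors, ITGAM and ITGAX, read at most 28.68 on either array on their brightest probe sets. CFD, the protease factor D of the alternative pathway, read 341 with miR-34a and 408 with the control mimic, at -0.25. CSMD1, a membrane protein with complement control repeats, read 60 with miR-34a and 81.8 with the control mimic, at -0.37, and the miR-34a value was within background. The second probe set of CSMD1 gave -0.012 and that of ITGB2 0.19. The central component C3 read 6.03 with miR-34a and 1 with the control mimic, both within background.

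The genes that build the GPI anchor of CD55 and CD59 lay near the median of all genes. Of 29 listed genes 28 had a probe set of their own and 27 passed the filter, with 15 higher and 12 lower and a median log2 ratio of 0.0087. Of these, 0 passed 1.5-fold in either direction, beside 3.32% higher and 2.94% lower by as much over all genes, and with shares that low nothing is read from a count of 0 in 27 genes. PIGA, the gene whose loss removes CD55 and CD59 from blood cells in paroxysmal nocturnal hemoglobinuria, read 517 with miR-34a and 504 with the control mimic, at 0.030. PIGA was named after its value was seen. PGAP3, which remodels the lipid of the anchor, and PIGS, a subunit of the enzyme that attaches it, were the highest at 0.27 and 0.15, the control signal of PGAP3 being within background. The mannosyltransferase genes PIGM and PIGB were the lowest at -0.32 each, but the second probe sets gave 0.084 for PIGM and -0.14 for PIGB.

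Other proteins held by a GPI anchor went both ways. Of 32 listed genes 20 passed the filter, 9 higher and 11 lower, with a median log2 ratio of -0.026, and 1.5-fold was passed upward by 1 and downward by 0. These counts stand beside 50.7% higher over all genes, and the 1.5-fold shares were the 3.32% and 2.94% given above. CD52, a lymphocyte surface antigen, read 304 with miR-34a and 176 with the control mimic, at 0.74, and its second probe set gave 0.95. CD58, an adhesion ligand of CD2 that exists in GPI-anchored and transmembrane forms, read 837 with miR-34a and 566 with the control mimic, at 0.55, and its 5 probe sets that passed the filter ran from 0.19 to 0.56. BST2, which tethers budding virus particles to the cell, read 658 with miR-34a and 863 with the control mimic, at -0.39. EFNA4, an ephrin ligand, was lowest at -0.40, with a miR-34a signal of 71.96 that lay within background. The probe sets of FOLR1, a folate receptor, disagreed, with -0.27 on the brightest and 1.32 on the second, and the 5 of TFPI, an inhibitor of coagulation, ran from 0.13 to 0.98. FOLR1 and TFPI were named after their values were seen.

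**Figure D4:**
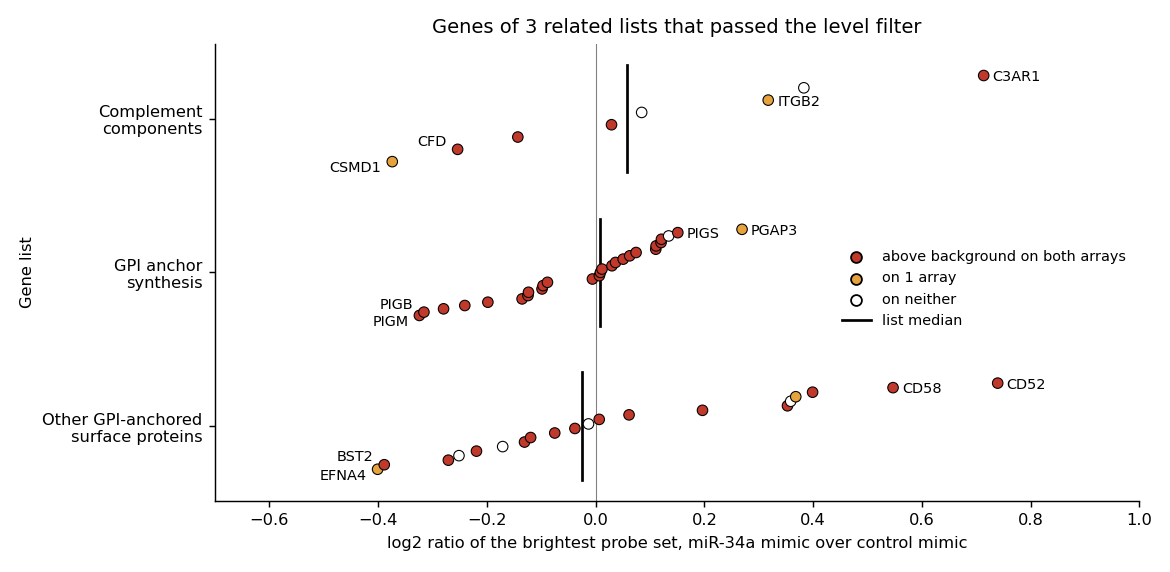
Log2 ratio of miR-34a over control mimic (x axis) of the brightest probe set for each gene that passed the filter, in 3 lists (y axis) with each list's median as a bar. Red points were above background on both arrays, orange on 1 and white on neither. The points of the GPI anchor synthesis genes lie between -0.32 and 0.27, and those of the other GPI-anchored proteins between -0.40 and 0.74. The lists differ in signal, with 25 of 27 and 14 of 20 genes above background on both arrays. Other passing probe sets are not drawn, and a further probe set of a synthesis gene gave 0.38.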

How the data were processed

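RNA of 2 K562 cultures was hybridised to 1 array each. Per the labels' protocols, Trizol was used for extraction and the standard Affymetrix method for biotin labelling. The authors deposited linear probe set intensity values for both arrays. How they were computed (software, background correction, scaling) is not given in the sources used, and the table has no detection call, which affects dim probe sets most. The file held 0 columns of other samples.

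From these values log2(intensity + 14.92) was taken, with the 25th percentile of the values as pseudocount, and ratios were centred by 0.0051. This scale understates the change of dim genes. A probe set passed the filter if its mean level reached the median over non-control probe sets, a signal of about 39.0. List genes took their brightest passing probe set with 1 symbol (41091 probe sets had 1 symbol, 1801 several and 11721 none). The 6 member gene IDs all stand in the RefSeq gene table of GRCh38.p14. The members, lists and settings were chosen with earlier results of these data known. Besides the members, genes named from the 3 lists are the 2 highest and 2 lowest with a signal above background on at least 1 array. C3, ITGAM, ITGAX, PIGA, FOLR1 and TFPI, the neighbours on chromosome 1 and the cell type markers printed were named outside that rule, after their values were seen. No gene of like pattern is named, because over 2 arrays any pair of genes that move the same way correlates fully. The promoter windows were aligned locally. The calculation was tested on simulated data. Alternatives changed the pseudocount, centring, normalization, filter and choice of probe sets. The tools were Biopython 1.88, pandas 2.3.3 and NumPy 2.4.6 under Python 3.11.15, with statsmodels 0.14.6 for loess and matplotlib 3.10.9 for the plots.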

Additional observations from a re-analysis of the deposited data

How the results depend on the processing

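Under 9 alternatives 198 of 207 recomputed values stayed within the spread between probe sets of a gene (0.24 on the log2 scale), or within 1.5 times for counts. Many of these values were counts of 0 or list medians near 0, which had little room to move, so the tally says little about robustness. Only CR1L and the probe set shared with CR1 had recomputed log2 ratios past 1.5-fold in the main setting, and neither changed sign. Of 71 recomputed ratios and list medians 6 changed sign, and all 6 were below 1.5-fold. They were the ratio of CD59 (0.0027 with quantile normalization), the ratio of CR1 (given below), the medians of the complement components (-0.057 above background on both arrays), of GPI synthesis (-0.032 as a mean over probe sets and -0.093 without the classes _s_at, _x_at and _a_at) and of other GPI-anchored proteins (0.0065 without those classes). These ratios followed each gene's brightest probe set, or in the alternative of a mean all its probe sets that passed. That of CR1L ran from 1.04 to 1.26 and that of the probe set shared with CR1 from 1.24 to 1.42. CD55 ran from 0.31 to 0.43 and CD46 from 0.18 to 0.24, where 0.24 is a mean that includes 211574_s_at, within background. With pseudocount, centring or normalization changed, 201926_s_at of CD55 ran from 0.47 to 0.53 and 207549_x_at of CD46 from 0.056 to 0.081. Without the probe set classes _s_at, _x_at and _a_at, CR1 moved to -0.11 and CR2 to 0.92, both within background, while CD46 and CD55 had no probe set left. Member probe sets at least 1.5-fold higher numbered 3 with no pseudocount and 3 without a filter, against 2 in the main setting. The added ones, 211574_s_at of CD46 and 244097_at of CR2 in that order, were within background. Complement components at least 1.5-fold higher numbered 0 with 4 times the pseudocount. Without a filter, 4 complement components were at least 1.5-fold higher, 2 of them 2-fold, and 3 at least 1.5-fold lower. Without a filter 1 GPI synthesis gene was 1.5-fold higher, and of the other GPI-anchored proteins 2 were 1.5-fold higher and 2 lower. CR2 had no probe set that passed the filter for the mean over probe sets. No alternative changes the limit of 1 culture per mimic. No paired analysis was possible because each group holds 1 array.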
